A study of Arabidopsis thaliana with 9 samples.

Results

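The 10 genes described here encode the phytochromes, cryptochromes, phototropins and the UV-B receptor of *Arabidopsis thaliana*. They were taken by their locus identifiers from a count matrix that names 32830 genes, and entries with the same identifier were summed. The members were *PHYA* (AT1G09570), *PHYB* (AT2G18790), *PHYC* (AT5G35840), *PHYD* (AT4G16250), *PHYE* (AT4G18130), *CRY1* (AT4G08920), *CRY2* (AT1G04400), *PHOT1* (AT3G45780), *PHOT2* (AT5G58140) and *UVR8* (AT5G63860). All 10 passed the filter on low counts in every comparison. RNA was sequenced from whole seeds in 3 groups of 3 biological replicates. The first group was wild-type seed of the accession Ara-1 without KAR2, a karrikin that acts through the receptor KAI2. The other groups were an *AtKAI2* overexpression line, AtKAI2OE, without KAR2 (untreated) or with 0.5 μM KAR2.

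All seeds were plated under dim light, imbibed for 4 days at 4 °C in darkness and then held dark at room temperature for 24 h. The labels place AtKAI2OE in Col-0, whereas the study's methods describe *35S::AtKAI2*, a transgene driven by a constitutive viral promoter, in the *htl-3* (*kai2*) mutant. Ara-1 therefore differed from AtKAI2OE in accession, transgene and possibly the *kai2* allele, and these cannot be told apart. Ara-1 reads were also mapped to the Col-0 genome, so that a difference in sequence cannot be told apart from one in level. In bulk seed RNA, fewer cells of a type cannot be told apart from less RNA per cell.

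Gene counts per library ranged from 17479888 to 33306518, and the 10 members held 0.0684% to 0.0885% of them in Ara-1, 0.219% to 0.315% in untreated AtKAI2OE and 0.275% to 0.288% after KAR2. Entries that name no gene took another 35.1% of counts in Ara-1 replicate 1 against 13.4% and 13.6% in the other Ara-1 libraries, 25.03% to 28.9% in untreated AtKAI2OE and 17.6% to 24.6% after KAR2. Levels here and below are CPM, counts per 1000000 of a library size scaled by TMM over the 9 libraries. TMM scales by a trimmed mean of log ratios between libraries and takes most genes to be unchanged. *KAI2* (AT4G37470), the overexpressed gene, was at 7.84 to 9.77 CPM in Ara-1, 129 to 217 in untreated AtKAI2OE and 568 to 604 after KAR2. It was thus far higher in AtKAI2OE than in Ara-1, as labelled, and transgene and endogenous transcripts cannot be told apart. Whole seed was checked by 7 storage protein and oleosin genes, whose summed level was 122327 to 161848 CPM in untreated AtKAI2OE, 14480 to 15680 after KAR2 and 347 to 563 in Ara-1. All 7 were lower after KAR2 than without it and lowest in Ara-1, and none was at 0. The log2 fold change of *CRA1* (AT5G44120) after KAR2 was -3.10. With only the count entry named by its identifier it was -1.06 and not called (adjusted p = 0.0571 from edgeR). The 3 endosperm markers summed to 1320 to 3498, 761 to 936 and 138 to 217 CPM, mostly from *EPR1*, with *RGE1* at 0 in all 9 libraries. Of the 3 seed coat markers, *TT10* and *BAN* had no count and *TT12* had 3 counts in 1 library. The seed markers and *EPR1* moved across the groups together with several members below, and their part in those results was not tested. *MAN7* differed, with a log2 fold change of 0.46 after KAR2. In Ara-1 it was 0.87 against untreated seeds and 0.38 against treated seeds. None of these was called (adjusted p from 0.569 to 0.860 from edgeR), and the *MAN7* libraries spread from 0.032 to 14.5 CPM.

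Plants read light through separate receptor families. Phytochromes carry a bilin chromophore, switch between forms that absorb red and far-red light and control germination in many seeds. Phytochrome A acts in very dim and in far-red light and is broken down in light, while phytochromes B to E are more light-stable and read the ratio of red to far-red. Cryptochromes and phototropins absorb blue and UV-A light through flavins, the former in seedling growth and flowering, the latter in bending towards light, chloroplast movement and stomatal opening. UVR8 absorbs UV-B through its own tryptophans and separates from a dimer into monomers.

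The phytochromes share a cysteine that holds the bilin, and the coding DNA around it shows how far the 5 genes differ as sequences to be counted. Each line gives 51 bases of the coding strand from the RefSeq genome TAIR10.1, 5′ to 3′, with the cysteine codon in capitals. The stretches lie at chr1:3098224-3098274 on the minus strand (*PHYA*), chr2:8141123-8141173 on the plus strand (*PHYB*), chr5:14008976-14009026 on the plus strand (*PHYC*), chr4:9198383-9198433 on the minus strand (*PHYD*) and chr4:10044959-10045009 on the minus strand (*PHYE*), each within a coding exon.
PHYA: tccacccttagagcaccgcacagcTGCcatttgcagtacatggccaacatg
PHYB: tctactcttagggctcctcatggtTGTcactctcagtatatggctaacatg
PHYC: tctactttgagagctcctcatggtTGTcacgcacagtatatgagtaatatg
PHYD: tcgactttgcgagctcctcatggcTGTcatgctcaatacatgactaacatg
PHYE: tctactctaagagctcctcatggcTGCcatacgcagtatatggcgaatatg
Over these 51 bases *PHYB* and *PHYD*, the closest pair of the family in evolution, differed at 11 positions, *PHYB* and *PHYC* at 8 and *PHYA* and *PHYC* at 19. The longest exact stretch that a member's coding sequence shared with another place in the genome was 43 bases, between *PHYB* and *PHYD*, followed by 31 bases between *PHOT1* and *PHOT2* and 26 between *PHYA* and *PHYE*. *UVR8* shared no stretch of 20 bases or more. These are shorter than the 75-base reads, and reads that map to several loci were removed by the authors. Exact matches say nothing of short reads left after trimming.

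In TAIR10.1 the members lie at chr1:3095160-3100819 (*PHYA*, minus strand), chr2:8139756-8144461 (*PHYB*, plus), chr5:14007812-14011848 (*PHYC*, plus), chr4:9195247-9199840 (*PHYD*, minus), chr4:10042137-10046346 (*PHYE*, minus), chr4:5723651-5727268 (*CRY1*, plus), chr1:1185512-1188696 (*CRY2*, minus), chr3:16816721-16824210 (*PHOT1*, plus), chr5:23523825-23533111 (*PHOT2*, plus) and chr5:25554416-25559499 (*UVR8*, minus). All are protein-coding genes, with 3 coding exons in *PHYC* and 22 in *PHOT2*. *PHYE* overlaps AT4G18140 on the same strand, which held 44 to 239 counts per library, so that reads in the overlap are uncertain. *PHOT2* overlaps AT5G58150 on the other strand, which had 0 counts.

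*PHYB*, *PHYD*, *UVR8* and *PHOT1* were the members that differed in all 3 comparisons below, and the DNA before their starts is shown for that reason. The lines give the 250 bases upstream of the annotated gene start in TAIR10.1, 5′ to 3′ on the strand of the gene, at chr2:8139506-8139755 (*PHYB*), chr5:25559500-25559749 (*UVR8*) and chr3:16816471-16816720 (*PHOT1*). For *PHYD* the 131 bases up to the neighbouring gene AT4G16260 are given, at chr4:9199841-9199971. Capitals mark the G-box CACGTG, a palindrome that bHLH and bZIP factors of light and ABA responses are known to bind.
PHYB: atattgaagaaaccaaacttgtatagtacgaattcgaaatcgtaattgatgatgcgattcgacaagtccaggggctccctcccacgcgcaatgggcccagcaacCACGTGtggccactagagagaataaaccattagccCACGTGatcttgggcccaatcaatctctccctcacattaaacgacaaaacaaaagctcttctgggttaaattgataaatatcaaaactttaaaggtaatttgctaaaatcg
PHYD: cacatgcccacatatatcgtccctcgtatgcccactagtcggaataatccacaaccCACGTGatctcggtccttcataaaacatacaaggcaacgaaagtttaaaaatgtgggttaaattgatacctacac
UVR8: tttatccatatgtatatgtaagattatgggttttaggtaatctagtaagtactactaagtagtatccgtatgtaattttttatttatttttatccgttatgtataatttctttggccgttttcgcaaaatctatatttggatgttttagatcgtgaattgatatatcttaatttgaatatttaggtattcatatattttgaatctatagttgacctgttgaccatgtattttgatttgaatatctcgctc
PHOT1: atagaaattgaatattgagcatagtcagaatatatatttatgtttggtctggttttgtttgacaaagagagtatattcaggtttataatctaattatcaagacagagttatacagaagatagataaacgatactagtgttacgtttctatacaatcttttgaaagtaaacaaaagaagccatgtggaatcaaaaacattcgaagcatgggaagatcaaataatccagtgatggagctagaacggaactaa
The G-box occurred 2 times before *PHYB*, 1 time before *PHYD* and before none of the other 8 members. The window of *PHYE* had 0 bases free of the neighbouring gene AT4G18140, and that of *PHOT2* had 6 free of AT5G58130. For these members the search thus read sequence of a neighbouring gene. It occurred in 6.49% of the 250-base windows of 27443 protein-coding nuclear genes. The I-box GATAAG, searched on both strands with overlaps of motifs allowed, was before none of the members and in 12.3% of all windows. Such a match is a description of letters, and no match says nothing of any factor.

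Transcripts of *PHYA*, which reads far-red and very dim light, made up the largest share of the family per length of transcript in every library. The levels below are CPM scaled by TMM over the 9 libraries, as above. *PHYA* was at 560.5, 429 and 360.1 CPM in Ara-1, 1859, 2508 and 2721 in untreated AtKAI2OE and 1972, 2151 and 2040.0 after KAR2. The means were 449.8 ± 102, 2363 ± 449 and 2054 ± 90.5 CPM (SD, n = 3 in each group). Ara-1 was thus below both AtKAI2OE groups without overlap, and the AtKAI2OE groups overlapped with each other.

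*PHYB*, the main red light receptor of germination in light, was at 31.7, 33.7 and 30.8 CPM in Ara-1, 109.9, 165 and 147 in untreated AtKAI2OE and 85.5, 90.1 and 88.7 after KAR2. *PHYD*, its closest relative, was at 23.3, 22.8 and 22.2 CPM in Ara-1, 102, 129 and 147 in untreated AtKAI2OE and 58.0, 59.8 and 57.8 after KAR2. For both genes every untreated library lay above every treated library, and every treated library above every Ara-1 library.

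*PHYE*, which also reads red to far-red ratio, was at 17.3, 17.7 and 16.4 CPM in Ara-1, 26.4, 55.7 and 31.5 in untreated AtKAI2OE and 22.5, 23.4 and 26.2 after KAR2. Its groups stood in the order of *PHYB* and *PHYD* without overlap, with untreated replicate 2 far above its fellows and only a narrow gap between untreated replicate 1 and the highest treated library. *PHYC*, whose protein works in dimers with phytochromes B and D, was at 21.0, 23.4 and 19.2 CPM in Ara-1, 15.2, 23.2 and 21.9 in untreated AtKAI2OE and 23.1, 26.4 and 24.5 after KAR2. Untreated *PHYC* overlapped with both other groups.

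Among the cryptochromes, *CRY1*, the receptor of bright blue light in seedling growth, was at 33.0, 26.9 and 28.5 CPM in Ara-1, 36.0, 40.2 and 44.4 in untreated AtKAI2OE and 31.6, 33.1 and 30.5 after KAR2. *CRY2*, which acts in dim blue light and in flowering and is broken down in blue light, was at 35.0, 27.6 and 26.7 CPM in Ara-1, 49.1, 63.2 and 60.4 in untreated AtKAI2OE and 64.8, 68.4 and 65.5 after KAR2. *CRY1* was above Ara-1 and the treated seeds in all untreated libraries, and *CRY2* was lowest in Ara-1 and highest after KAR2, each without overlap.

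*PHOT1*, the phototropin that acts from very dim blue light on, went the other way. It was at 57.9, 61.2 and 51.0 CPM in Ara-1, 5.36, 10.4 and 6.75 in untreated AtKAI2OE and 18.1, 18.1 and 20.6 after KAR2, with no overlap between any of the groups. *PHOT2*, the phototropin of bright blue light, was at 13.5, 16.1 and 12.2 CPM in Ara-1, 8.60, 14.5 and 10.6 in untreated AtKAI2OE and 11.0, 11.8 and 11.6 after KAR2, where untreated seeds spanned both other groups.

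*UVR8*, the UV-B receptor gene, was at 80.0, 70.1 and 77.6 CPM in Ara-1, 472, 426 and 627 in untreated AtKAI2OE and 194, 201 and 179 after KAR2. As for *PHYB* and *PHYD*, all 3 groups stood apart, with the highest values in untreated seeds and the lowest in Ara-1.

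**Figure D1:**
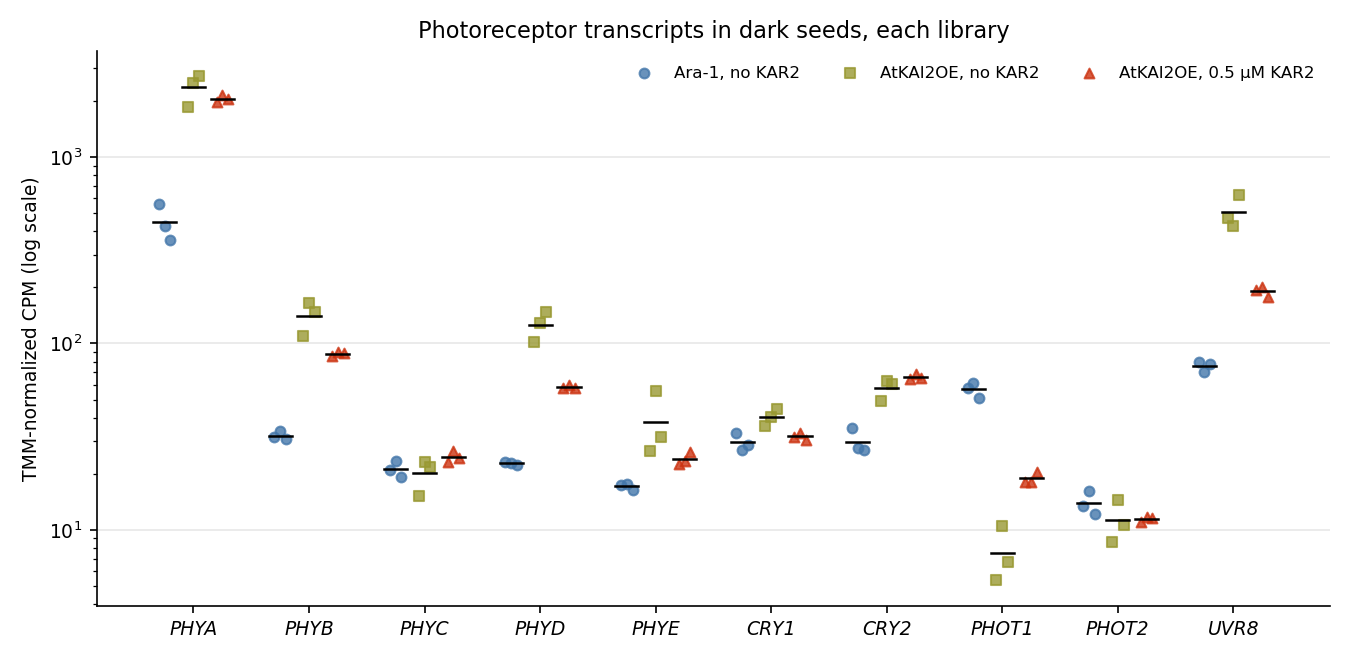
Level of the 10 photoreceptor transcripts in TMM-normalized CPM (log axis) in each of the 9 libraries. Points are libraries and black bars group means (n = 3). *PHYB*, *PHYD*, *PHYE* and *UVR8* descend from untreated AtKAI2OE to KAR2-treated AtKAI2OE to Ara-1, whereas *PHOT1* ascends from 5.36 to 10.4 through 18.1 to 20.6 to 51.0 to 61.2 CPM.

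Between genes, levels were compared per kilobase of annotated exon. *PHYA* was first and *UVR8* second in all 3 groups. *PHYA* had 88.0 ± 19.9 CPM per kilobase in Ara-1, 462 ± 87.9 in untreated AtKAI2OE and 402 ± 17.7 after KAR2, and *UVR8* had 34.4 ± 2.34, 230.0 ± 47.7 and 86.5 ± 5.15 (SD, n = 3). These were apart from each other and from the third gene by more than their SD in every group.

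The third place differed. It was held by *PHOT1* in Ara-1 (15.6 ± 1.43 CPM per kilobase), by *PHYB* in untreated AtKAI2OE (31.1 ± 6.22) and by *CRY2* after KAR2 (24.3 ± 0.696). *PHOT1* ranked ninth in both AtKAI2OE groups, at 2.06 ± 0.720 and 5.19 ± 0.391, and *PHOT2* was last in all groups, at 1.95 ± 0.279, 1.58 ± 0.424 and 1.61 ± 0.0612 in the order Ara-1, untreated, KAR2. Neighbours in the order whose mean ± SD ranges overlapped were *CRY2* (10.9 ± 1.67) and *CRY1* (9.76 ± 1.05) in Ara-1, *PHYC* (5.58 ± 0.550) and *PHYD* (5.42 ± 0.124) in Ara-1, *PHYB* and *PHYD* (30.0 ± 5.43) in untreated seeds, *PHYE* (9.68 ± 4.01) with both *CRY1* (13.3 ± 1.40) and *PHYC* (5.28 ± 1.12) in untreated seeds, and *PHYC* (6.48 ± 0.440) and *PHYE* (6.14 ± 0.497) after KAR2. *PHOT1* and *PHOT2* in untreated seeds were also within their spread and changed places per kilobase of coding sequence, since the many isoforms of *PHOT2* give it an exon length of 7.121 kb against 2.748 kb of coding sequence. No test was run between genes.

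Within a library, the ratio of a pair of members does not depend on how libraries are scaled. Per kilobase, *PHYA* exceeded *PHYB* 10.3- to 15.7-fold in Ara-1, 13.5- to 16.4-fold in untreated AtKAI2OE and 20.4- to 21.2-fold after KAR2. The treated libraries thus lay above all others, and Ara-1 overlapped with untreated seeds. *PHYA* made up 76.8% to 83.0% of the summed phytochrome transcripts per kilobase in Ara-1, 84.9% to 86.7% in untreated AtKAI2OE and 89.6% to 89.9% after KAR2. *PHYC* took 4.18% to 5.73% in Ara-1, 0.938% to 1.05% in untreated AtKAI2OE and 1.41% to 1.48% after KAR2. Both shares stood apart in all 3 groups, but they depend on second entries of the count matrix with the identifiers of *PHYA* and *PHYC*, described further on. With only the entry named by the identifier, the *PHYC* share was 1.73%, 5.15% and 3.80% in the Ara-1 libraries, so that replicate 1 lay next to the treated seeds (1.43% to 1.66%), and the *PHYA* share in Ara-1 (78.1% to 84.1%) overlapped with that in untreated seeds (82.8% to 85.8%).

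*PHYB* and *PHYD* were nearly equal in untreated seeds, with a ratio of 0.929 to 1.19 per kilobase, against 1.26 to 1.37 in Ara-1 and 1.37 to 1.42 after KAR2. *CRY1* had 0.851 to 0.964 of the level of *CRY2* in Ara-1, 0.576 to 0.665 in untreated AtKAI2OE and 0.422 to 0.441 after KAR2. *PHOT1* exceeded *PHOT2* 7.43- to 8.38-fold in Ara-1, 1.22- to 1.40-fold in untreated AtKAI2OE and 3.00- to 3.45-fold after KAR2. The cryptochrome and phototropin ratios did not overlap between any of the groups. These ratios were not tested beyond that, since an exact permutation test of 3 against 3 libraries cannot go below p = 0.1.

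**Figure D2:**
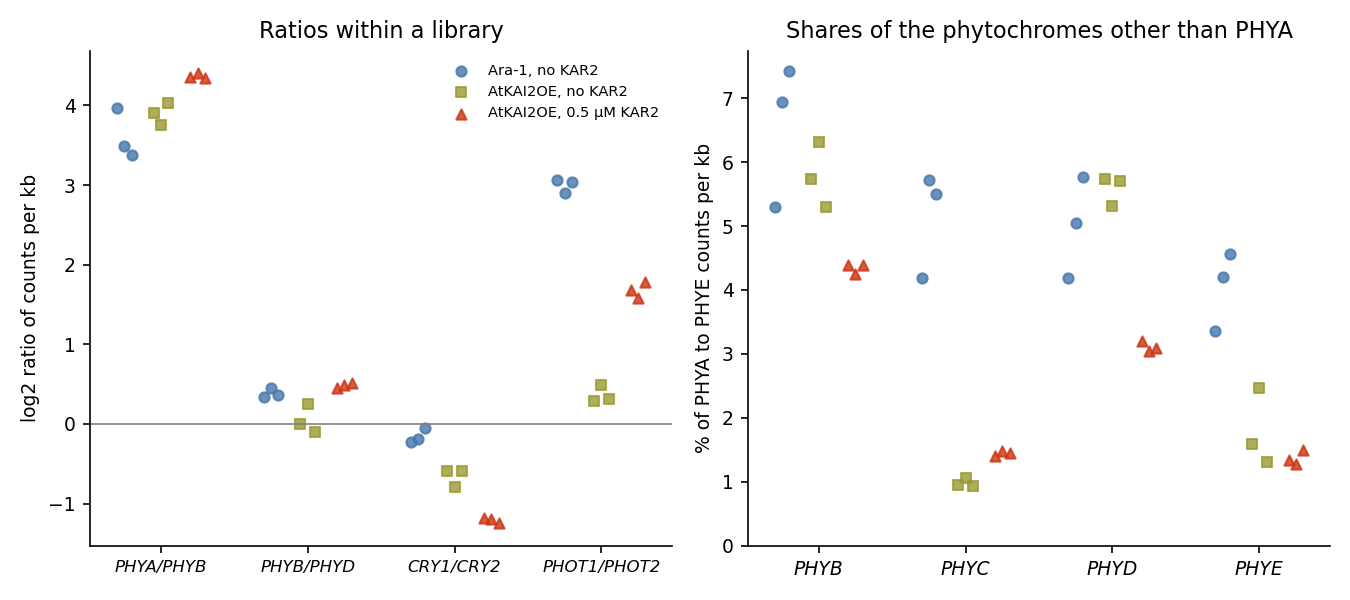
Left, log2 ratio of counts per kilobase of 4 pairs of photoreceptor genes in each library, where 0 means equal levels. Right, share of *PHYB* to *PHYE* in the summed phytochrome counts per kilobase of a library, in percent. *CRY1*/*CRY2* and *PHOT1*/*PHOT2* separate all 3 groups, and the *PHYC* share is 4.18% to 5.73% in Ara-1 against at most 1.48% in AtKAI2OE, with Ara-1 replicate 1 at 1.73% when only the entry named by the identifier is counted.

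In dark AtKAI2OE seeds, transcripts of *UVR8*, *PHYD*, *PHYB* and, by less, *CRY1* were lower with KAR2 than without it, and *PHOT1* was higher. The comparison asks how the receptors' own transcripts differ with KAR2 in seeds held dark after plating under dim light. In the paper's dark assays, scored later, the overexpression line germinated with KAR2, whereas overexpression alone was not enough. The groups may thus also differ in progress towards germination, and its part in these values was not tested. Each comparison took 6 libraries and edgeR's quasi-likelihood test over all genes with Benjamini-Hochberg adjustment at 0.05. The log2 fold change after KAR2 was -1.43 for *UVR8* (SE 0.16, adjusted p = 0.000381 from edgeR), -1.13 for *PHYD* (SE 0.13, adjusted p = 0.000489) and -0.70 for *PHYB* (SE 0.15, adjusted p = 0.00766). *UVR8* was thus 2.70-fold, *PHYD* 2.18-fold and *PHYB* 1.62-fold lower. *CRY1* was 1.29-fold lower (log2 fold change -0.36, SE 0.11, adjusted p = 0.0248 from edgeR). *PHOT1* was 2.46-fold higher (log2 fold change 1.3, SE 0.24, adjusted p = 0.00372 from the same test).

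The other 5 members did not pass. *PHYA* had a log2 fold change of -0.22 with a 95% interval from -0.64 to 0.20 (adjusted p = 0.335 from edgeR), *PHYC* one of 0.27 from -0.11 to 0.65 (adjusted p = 0.198) and *CRY2* one of 0.18 from -0.10 to 0.46 (adjusted p = 0.243). The interval of *PHOT2* ran from -0.47 to 0.48 around 0.00 (adjusted p = 0.997). *PHYE* had a log2 fold change of -0.68 (SE 0.28, adjusted p = 0.0729), although its libraries did not overlap.

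In all, 1 member was higher and 4 were lower of 10, among 17226 genes of which 53.8% were called, 29.8% higher and 24.0% lower. With the 6 libraries of the comparison scaled on their own, the libraries of 6 members did not overlap between the groups, against 65.6% of all genes. On the levels given above, which were scaled over all 9 libraries, *CRY2* was apart as well, which makes 7. The members' median log2 fold change was -0.29 against 0.06 over all genes, and the median of its size 0.52 against 0.76. The share of members called was thus near that of all genes. *UVR8*, *PHOT1* and *PHYD* each changed by more than the median gene, and 25.4%, 28.6% and 33.7% of genes changed at least as much.

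Some of these calls depended on the scaling. When counts were scaled by library size only, which moves the median of all genes by 0.40 on the log2 scale, *PHYB* had a log2 fold change of -0.31 (adjusted p = 0.207 from edgeR), *CRY1* one of 0.03 and *PHYA* one of 0.17, while *UVR8*, *PHYD* and *PHOT1* kept their calls. *CRY1* also lost its call on omission of untreated replicate 3 or of each treated replicate in turn (adjusted p from 0.0518 to 0.113 from edgeR), and *PHYE* passed without untreated replicate 1 (adjusted p = 0.0205) and was at -0.32 without untreated replicate 2.

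In Ara-1 seeds 7 members were lower than in untreated AtKAI2OE, 4 of them by more than 4-fold, and *PHOT1* was higher. *UVR8* was 6.80-fold, *PHYD* 5.62-fold, *PHYA* 5.35-fold and *PHYB* 4.47-fold lower, and *PHYE* 2.26-fold, *CRY2* 1.97-fold and *CRY1* 1.39-fold lower. *PHOT1* was 7.34-fold higher. In edgeR's test the log2 fold change was -2.77 for *UVR8* (SE 0.19, adjusted p = 1.79e-05), -2.49 for *PHYD* (SE 0.15, adjusted p = 1.17e-05), -2.42 for *PHYA* (SE 0.25, adjusted p = 0.000119) and -2.16 for *PHYB* (SE 0.17, adjusted p = 3.53e-05). It was 2.88 for *PHOT1* (SE 0.26, adjusted p = 5.59e-05), -1.18 for *PHYE* (SE 0.28, adjusted p = 0.00674), -0.98 for *CRY2* (SE 0.16, adjusted p = 0.00107) and -0.48 for *CRY1* (SE 0.14, adjusted p = 0.0163).

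*PHYC* (0.05, from -0.37 to 0.47) and *PHOT2* (0.27, from -0.25 to 0.80) did not pass (adjusted p = 0.814 and 0.304 from edgeR). Hence 1 member was higher and 7 were lower of 10, among 17905 genes of which 69.6% were called, 37.9% higher and 31.8% lower. The libraries of 8 members did not overlap on either scaling, against 75.5% of all genes on that of the 6 libraries. The median log2 fold change was -1.08 for the members and 0.16 for all genes, and the median size 1.67 against 1.31. *CRY1* lost its call without Ara-1 replicate 2 or 3 or untreated replicate 3 (adjusted p from 0.0600 to 0.0773) and with scaling by library size only (adjusted p = 0.488).

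A value of *PHYC* in Ara-1 rests on a second entry of the count matrix that carries the same identifier. This entry held 62.6%, 13.4% and 32.3% of the summed *PHYC* counts in Ara-1, 3.48% to 19.6% in untreated AtKAI2OE and at most 19.5% after KAR2. Without it, *PHYC* had a log2 fold change of -0.37 against untreated AtKAI2OE (adjusted p = 0.359 from edgeR) and of 0.39 after KAR2 (adjusted p = 0.0473). For *PHYA* the second entry held at most 17.9% of counts, and for *PHOT1* at most 2 counts in a library.

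Ara-1 and KAR2-treated AtKAI2OE were compared to place the 3 groups in order. Here KAR2 also differs, and it cannot be told apart from accession, transgene and the possible *kai2* allele. This comparison shares libraries with both others, so that its values are no separate evidence. *PHYA* was 4.69-fold lower in Ara-1 (log2 fold change -2.23, SE 0.17, adjusted p = 2.08e-05 from edgeR), and only 9.98% of all tested genes differed at least as much. *PHYB* (-1.49, SE 0.07, adjusted p = 2.38e-06), *PHYD* (-1.40, SE 0.07, adjusted p = 2.72e-06), *UVR8* (-1.37, SE 0.08, adjusted p = 7.74e-06) and *CRY2* (-1.19, SE 0.11, adjusted p = 6.94e-05) were between 2.29- and 2.82-fold lower. *PHYE* was 1.44-fold lower (-0.53, SE 0.09, adjusted p = 0.00144), and *PHOT1* 2.92-fold higher (1.54, SE 0.10, adjusted p = 1.03e-05).

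*CRY1* (-0.15, from -0.37 to 0.08), *PHYC* (-0.25, adjusted p = 0.0591) and *PHOT2* (0.24, adjusted p = 0.121) did not pass edgeR's test. The libraries of *PHOT2* did not overlap, and those of *PHYC* did so on the levels given above (23.4 CPM in an Ara-1 library against 23.1 in a treated one) but not on the scaling of these 6 libraries. So 1 member was higher and 6 were lower, among 17978 genes of which 62.4% were called, 30.1% higher and 32.2% lower. On the scaling of the 6 libraries, 9 members did not overlap, against 69.7% of all genes, and on the levels given above 8 did not. The median log2 fold change was -0.86 for the members and -0.01 for all genes, and the median size 1.28 against 0.61. *PHOT2* was called without Ara-1 replicate 3 (adjusted p = 0.0448) and *PHYC* without Ara-1 replicate 2 (adjusted p = 0.0390). Over 18 alternatives in processing or libraries, the log2 fold change of *PHYC* in this comparison ran from -0.76 to -0.12.

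**Figure D3:**
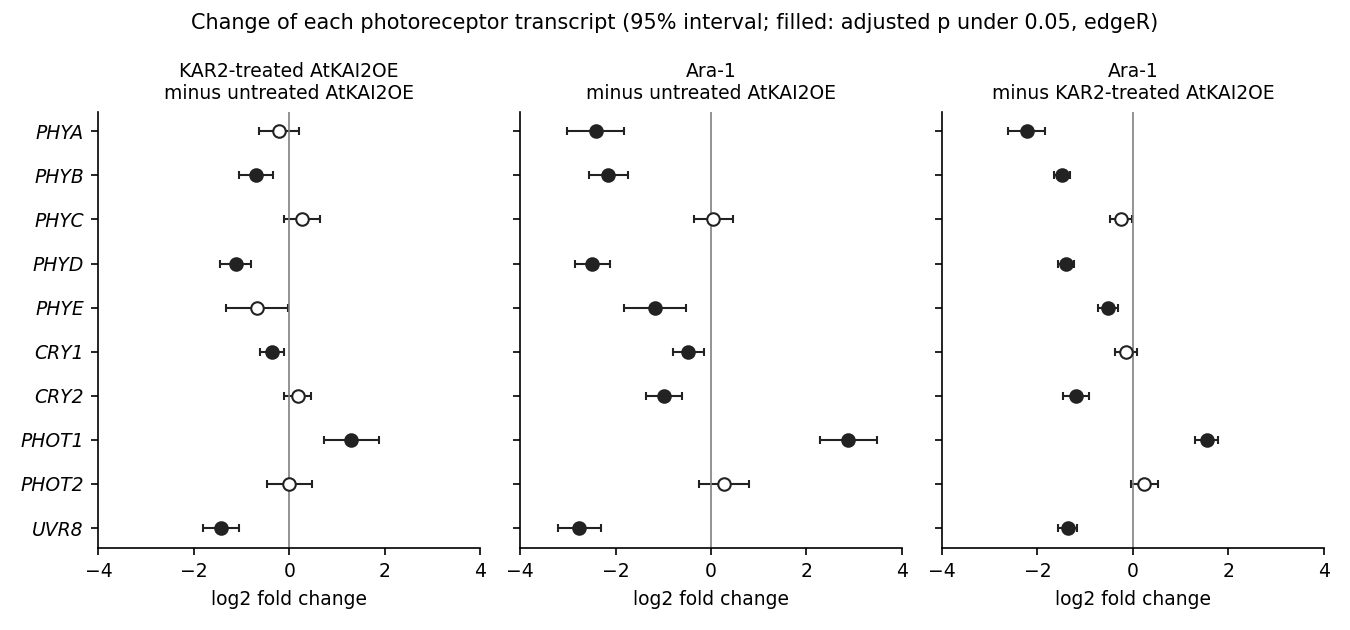
Log2 fold change of the 10 photoreceptor transcripts in the 3 comparisons, with bars for the 95% interval and filled points for an adjusted p under 0.05 by edgeR (3 libraries in each group). *PHYB*, *PHYD* and *UVR8* lie below 0 and *PHOT1* above 0 in each panel, *PHYA* is near 0 only in the first (-0.22), and *PHYC* and *PHOT2* are open points in all 3.

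Read over the 3 groups, *PHYB*, *PHYD* and *UVR8* fell from untreated AtKAI2OE to KAR2-treated AtKAI2OE to Ara-1 with a call at each step, and *PHOT1* rose in the same order with a call at each step. Ara-1 differs from treated seeds in line and in KAR2, so this order is one of levels only. *PHYA* and *CRY2* did not pass between the AtKAI2OE groups and were lower in Ara-1 than in both. *PHYE* had a call only against Ara-1, and *CRY1* only against untreated seeds. *PHYC* and *PHOT2* had no call in any comparison. The *PHYE* call between Ara-1 and treated seeds was lost when all 9 libraries were fitted together (adjusted p = 0.129 from edgeR).

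By a fixed rule, the gene whose profile over the 9 libraries was most like that of each member was looked up among 6571 genes with an average log2 CPM of at least 4. The measure was the root mean square difference of log2 CPM after each gene was centred on its own mean, and likeness says nothing of function. The nearest gene was *SPY* (AT3G11540) for *PHYD* at 0.07, AT1G70590 for *UVR8* at 0.08, *MPK7* (AT2G18170) for *PHYB* at 0.12 and *TIP* (AT5G24590) for *PHYA* at 0.17. It was AT5G35430 for *PHYC* (0.07), *CSTF77* (AT1G17760) for *PHYE* (0.11), *AtRZ-1b* (AT1G60650) for *CRY1* (0.08), *LACS8* (AT2G04350) for *CRY2* (0.10), AT5G49840 for *PHOT2* (0.08) and *PATL2* (AT1G22530) for *PHOT1* (0.21). Among the members themselves *PHYD* and *UVR8* were nearest to each other (0.19), and the nearest member to *PHOT1* was at 1.07. For scale, the root mean square of a member's own log2 CPM around its mean was 1.01 for *PHYD*, 1.12 for *UVR8* and 1.23 for *PHOT1*, but only 0.22 for *CRY1* and *PHYC* and 0.25 for *PHOT2*, whose nearest genes are then not close beside their own spread.

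Genes of the receptors' pathways were taken from lists and are given by count, with examples. Over all tested genes, 29.8% were called higher and 24.0% lower after KAR2. The shares were 37.9% and 31.8% in Ara-1 against untreated seeds, and 30.1% and 32.2% against treated seeds. The 5 other flavin-binding or related blue-light genes, of which *ZTL* (AT5G57360), *FKF1* (AT1G68050) and *LKP2* (AT2G18915) encode F-box proteins of the clock and flowering, were 4 lower and 1 higher after KAR2. *FKF1* was at 14.6 to 19.0 CPM in untreated AtKAI2OE, 4.55 to 4.84 after KAR2 and 0.516 to 0.678 in Ara-1, and *LKP2* at 61.8 to 81.1, 25.4 to 31.9 and 10.3 to 13.9. *PLPB* (AT2G02710), a PAS/LOV protein gene, was at 37.1 to 61.2, 12.4 to 16.7 and 4.78 to 6.66 CPM. The one that rose was *CRY3* (AT5G24850), an organellar cryptochrome related to photolyases, from 3.84 to 6.26 up to 17.4 to 18.2 CPM, with 7.91 to 9.78 in Ara-1. The log2 fold change after KAR2 was -1.87 for *FKF1* (SE 0.15, adjusted p = 8.62e-05 from edgeR), -1.42 for *LKP2* (SE 0.16, adjusted p = 0.000381), -1.70 for *PLPB* (SE 0.22, adjusted p = 0.000676) and 1.76 for *CRY3* (SE 0.18, adjusted p = 0.000276). *ZTL* lost its call after KAR2 without treated replicate 1 (adjusted p = 0.0565 from edgeR) or 3 (adjusted p = 0.0623). In Ara-1 all 5 were lower than in treated seeds, and 4 were lower and 1 was higher than in untreated seeds. The higher one, *CRY3*, lost that call without Ara-1 replicate 2 or 3 or untreated replicate 3 (adjusted p from 0.0566 to 0.0704), and *PLPB* lost its call against treated seeds with only the entry named by its identifier (adjusted p = 0.0647).

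The bilin of phytochromes is made from heme by heme oxygenases and the reductase HY2. Of 5 genes, *HO1* (AT2G26670) and *HO2* (AT2G26550) were higher after KAR2, *HY2* (AT3G09150) did not pass, and *HO3* and *HO4* had 0 to 6 counts in a group and were not tested. *HO2* was at 1.03 to 1.81 CPM in untreated AtKAI2OE, 3.55 to 4.30 after KAR2 and 6.27 to 8.83 in Ara-1, which is the order of *PHOT1*. Its log2 fold change was 1.53 after KAR2 (SE 0.30, adjusted p = 0.00438 from edgeR), 2.44 for Ara-1 against untreated seeds (SE 0.31, adjusted p = 0.00033) and 0.88 for Ara-1 against treated seeds (SE 0.16, adjusted p = 0.00209). *HO1*, the main heme oxygenase, changed by 0.43 after KAR2 (SE 0.12, adjusted p = 0.0222), a call that 5 of 6 omissions of a single library removed (adjusted p from 0.0529 to 0.0875 in those). In Ara-1, *HO1* had no call against untreated seeds and was lower than in treated seeds (-0.27, adjusted p = 0.0214 from edgeR). The latter call was lost in 4 of 6 omissions of a library (adjusted p up to 0.0924), with all 9 libraries (0.175) and with limma, where the value was -0.13 (0.22).

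After KAR2, 5 of 9 phytochrome partners were lower, 3 did not pass and 1 was higher, *PTAC12* (AT2G34640), a nuclear and plastid protein needed for phytochrome responses (log2 fold change 0.58, adjusted p = 0.018 from edgeR). Over all genes 24.0% were lower and 29.8% higher. The calls of *FAR1* (AT4G15090) and *PP5* (AT2G42810) were lost on omission of each treated replicate in turn (adjusted p from 0.0836 to 0.145 and from 0.0716 to 0.156 from edgeR), and that of *PTAC12* without treated replicate 1 (adjusted p = 0.0719) or 3 (adjusted p = 0.0705), so that 3 were lower and none of these was higher without treated replicate 1. With scaling by library size only, 2 of the 9 were lower and 1 was higher, and of the 5 flavin genes 3 and 1. *LRB1* (AT2G46260) and *LRB2* (AT3G61600) encode subunits of ubiquitin ligases that act on phytochrome B. *LRB1* was at 151 to 219 CPM in untreated AtKAI2OE, 81.0 to 88.1 after KAR2 and 21.9 to 29.5 in Ara-1, and *LRB2* at 128 to 200.2, 86.5 to 98.7 and 50.8 to 62.2. The log2 fold change after KAR2 was -1.19 for *LRB1* (SE 0.14, adjusted p = 0.000478 from edgeR) and -0.76 for *LRB2* (SE 0.17, adjusted p = 0.00721). *LRB2* was at -0.36 and lost its call with scaling by library size only (adjusted p = 0.104 from edgeR). *TZP* (AT5G43630), a phytochrome-interacting zinc finger gene, had a log2 fold change of -1.51 (SE 0.30, adjusted p = 0.00453), which did not pass with only the entry named by its identifier (adjusted p = 0.137). The nuclear import factor gene *FHL* (AT5G02200) was at 7.48 to 10.9 and 8.01 to 11.0 CPM in the AtKAI2OE groups against 1.27 to 1.98 in Ara-1, a log2 fold change of -2.47 against untreated seeds (SE 0.26, adjusted p = 0.000134). *FHY1*, its homolog that carries phytochrome A into the nucleus, did not pass in any comparison, nor did *FHY3*. In Ara-1, 1 partner was higher and 6 were lower than in untreated seeds (37.9% and 31.8% of all genes). Against treated seeds, 1 was higher and 5 were lower (30.1% and 32.2% of all genes). Of these calls, that of *FAR1* against untreated seeds was lost in 4 of 6 omissions of a library (adjusted p up to 0.157) and that of *PTAC12* against treated seeds in 5 of 6 (adjusted p up to 0.147).

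NPH3 and RPT2 are scaffold proteins at the plasma membrane that act with phototropins in bending, and PIN3 moves auxin sideways. *NPH3* (AT5G64330) had 30 counts over the 3 untreated libraries, 340 after KAR2 and 2194 in Ara-1, at 0 to 0.683, 3.23 to 5.21 and 21.4 to 28.2 CPM. *PIN3* (AT1G70940) was at 2.18 to 2.62 CPM in untreated AtKAI2OE, 24.5 to 27.5 after KAR2 and 29.5 to 31.4 in Ara-1. *RPT2* (AT2G30520) had 6 counts, all in untreated replicate 2, against 70 after KAR2 and 88 in Ara-1. Thus 3 of 7 genes rose after KAR2, *PKS2* did not pass and 3 had too few counts to be tested. Of all tested genes, 29.8% rose, a share that leaves out untested genes. The log2 fold change was 3.42 for *PIN3* (SE 0.14, adjusted p = 2.25e-05 from edgeR) and 3.11 for *NPH3* (SE 0.72, adjusted p = 0.00935), while the call of *RPT2* (adjusted p = 0.0298) was lost on omission of untreated replicate 3 or of each treated replicate in turn (adjusted p up to 0.0907). *PKS2* (AT1G14280), a substrate of phytochrome kinase activity that binds phototropins, had 115 and 167 counts in the AtKAI2OE groups and 9 in Ara-1, a log2 fold change of -4.20 against untreated seeds (SE 0.42, adjusted p = 9.49e-05). In Ara-1, 3 were higher and 1 lower than in untreated seeds (37.9% and 31.8% of all genes). Against treated seeds, 1 was higher and 1 lower (30.1% and 32.2% of all genes).

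RUP2 returns UVR8 monomers to the dimer, and COP1 binds active UVR8. *RUP2* (AT5G23730) had 7 counts over the untreated libraries, 679 after KAR2 and 1024 in Ara-1, at 0 to 0.281, 7.61 to 8.81 and 10.8 to 12.0 CPM. It passed in all 3 comparisons (adjusted p = 0.000221, 6.75e-05 and 0.00564 from edgeR), and its fitted fold over untreated seeds rests on those few counts. The step from treated seeds to Ara-1 was not called when all 9 libraries were fitted together (adjusted p = 0.203 from edgeR). *COP1* (AT2G32950) was at 13.6 to 20.4, 11.7 to 15.5 and 7.02 to 9.07 CPM, without a call after KAR2 and lower in Ara-1 (log2 fold change -1.05 against untreated seeds, SE 0.22, adjusted p = 0.00342). *RUP1* had at most 15 counts in a group and was not tested. Of cryptochrome partners only *CIB1* (AT4G34530), a bHLH factor gene that binds CRY2, could be matched to the reference by name. Its libraries spread from 0.452 to 4.77 CPM after KAR2 and from 0.226 to 11.8 in Ara-1, against 0.199 to 0.469 in untreated seeds, and its call after KAR2 (adjusted p = 0.0239 from edgeR) was lost in 5 of 6 omissions of a single library (adjusted p up to 0.0825).

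**Figure D4:**
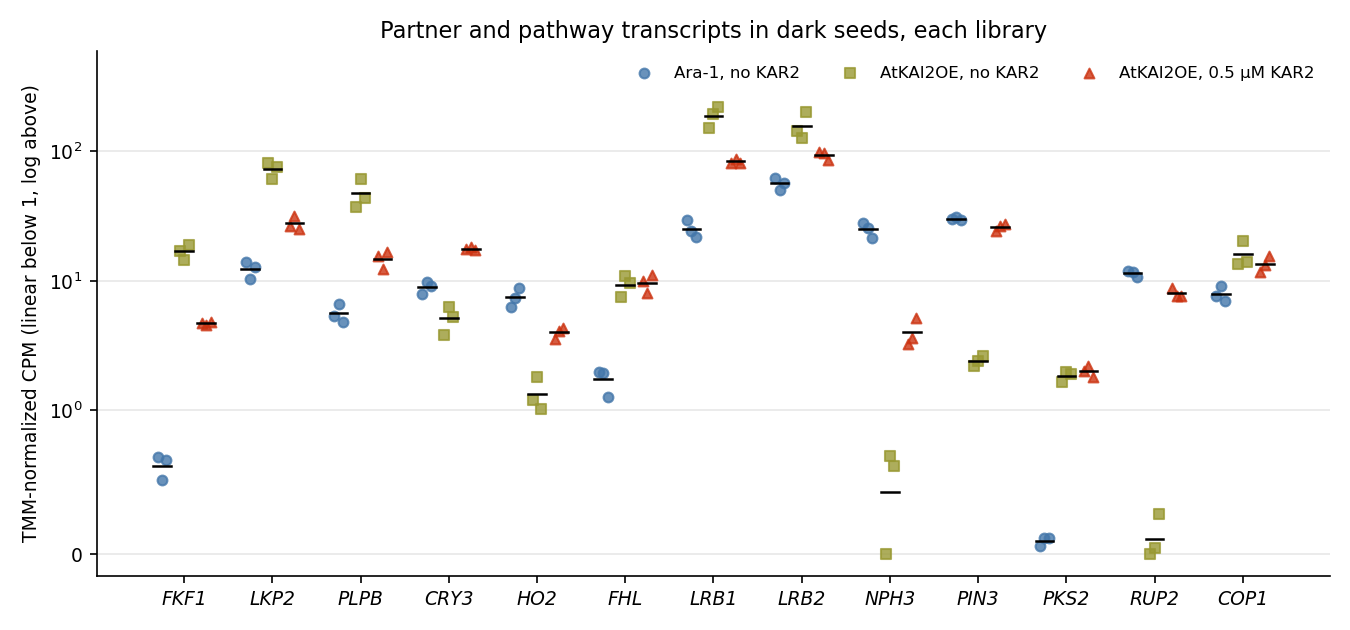
Level of 13 partner and pathway transcripts in TMM-normalized CPM (linear below 1, logarithmic above) in each of the 9 libraries, with black bars for group means (n = 3). *NPH3*, *PIN3* and *RUP2* are lowest in untreated AtKAI2OE, *FKF1*, *LKP2*, *PLPB*, *LRB1* and *LRB2* are highest there, and *FHL* and *PKS2* are low only in Ara-1.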

How the data were processed

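The authors used htStream to clean single-end 75-base reads of a directional kit, HISAT2 2.1.0 to map them to TAIR10, SAMtools 1.10 to remove reads of several loci and StringTie 2.1.3 to assemble and merge transcripts on Araport11, and deposited whole-number counts per gene entry, which that tool's script derives from transcript coverage. The strand setting of the counting is not stated in the sources used here. The authors also deposited a normalized signal, each count divided by a DESeq2 (1.18.1) size factor, used here only for alternatives with limma.

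Of 37054 entries, 35949 name one of 32830 genes and were summed by gene, and 1105 without a gene were left out. Per comparison, the 6 libraries were fitted with edgeR 4.0.16 in R 4.3.3 (filterByExpr, minimum count 10, minimum total 15, TMM, quasi-likelihood test, Benjamini-Hochberg adjustment over all tested genes, threshold 0.05). SE was computed as the absolute log2 fold change divided by the root of F, and intervals are 95% and unadjusted. Alternatives used DESeq2 1.42.0, limma 3.58.1, other scalings, filters and entries, all 9 libraries, a replicate block and omission of each library. The tests were checked on simulated counts. No replicate pair was a duplicate, since chi-square per degree of freedom between replicates ranged from 11.2 to 121.

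Named genes are the 10 members, genes of lists written for their pathways and the nearest profile of each member. Members and lists were chosen with earlier results of these data known. Of 11 phytochrome partners, 3 cryptochrome partners and 9 phototropin partners, 9, 1 and 7 were kept, since the reference did not give the other identifiers the expected name. Positions and sequences are from the RefSeq annotation and genome TAIR10.1, in which 32545 of the genes have a locus. Protein sequences were not used here.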

Additional observations from a re-analysis of the deposited data

How the results depend on the processing

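Over 18 alternatives to each of the 10 log2 fold changes in 3 comparisons, 503 of 540 values kept their direction and their side of the threshold. *UVR8*, *PHYD* and *PHOT1* did so in every alternative of every comparison, with a log2 fold change after KAR2 from -1.58 to -1.03, -1.27 to -0.73 and 1.1 to 1.68. After KAR2, scaling by library size only gave 3 members higher (*PHYC*, *CRY2*, *PHOT1*) and 2 lower, with *PHYA* at 0.17, *CRY1* at 0.033 and the partner gene *PP5* at 0.060, against -0.22, -0.36 and -0.34. With only the entry named by the identifier, 2 members were higher. *PHOT2*, near 0 after KAR2, turned to -0.0073 with RLE scaling, -0.0084 with that entry, -0.013 with entries that name no gene, -0.0092 without organelle genes and -0.022 with limma at either pseudocount (1 or 10). Leaving out single libraries moved it from -0.17 to 0.20. Against untreated seeds, *PHYC* in Ara-1 turned to -0.37 with that entry and ranged from -0.15 to 0.13 over single omissions. Between Ara-1 and treated seeds, limma called 2 members higher at either pseudocount, and single omissions gave 1 to 2 higher. The log2 ratio of *PHOT1* to *PHOT2* in untreated seeds, 0.36 per kilobase, was -0.60 as counts without division by length. *PHYE* passed after KAR2 with DESeq2 (adjusted p = 0.0423) and with all 9 libraries (adjusted p = 0.0427). The lengths of coding sequences were tried after seeing the data and gave *PHYA* 82.7%, 88.2% and 91.5% of phytochrome transcripts in Ara-1, untreated and treated seeds. The entry named by the identifier alone, also tried after seeing the data, gave *PHYA* 80.1%, 84.7% and 88.2% and *PHYC* 3.56%, 0.917% and 1.55%, against 5.14%, 0.979% and 1.45% with both entries. The causes of these shifts were not tested.

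Replicate numbers are shared by the groups, but neither the labels nor the methods say what a number stands for, and the correlation across genes of same-numbered deviations ran from -0.09 to 0.27 and was not over 0.1 in every pair of a comparison. With the replicate number as a block, *CRY1* after KAR2 was not called (log2 fold change -0.36, adjusted p = 0.0915), so that 3 members were lower and 1 was higher. In the other comparisons the block gave the counts of members stated in the report. A difference that is small beside the spread of 3 libraries may have been missed. The p-values set a difference against the spread between these biological replicates, which edgeR moderates over all tested genes, and cover no other source of variation.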
